A study of Mus with 15 samples.

Results

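The 9 mouse Pax genes, Pax1 to Pax9, were examined for monoubiquitination of histone H2A (H2AK119ub1, here H2Aub) in the thalamus after repeated cocaine or saline. They were chosen by name as the paired box family, and all 9 were found among the 21887 protein-coding genes placed on chromosomes 1 to 19, X and Y. Every gene was described over a window of its body plus 5 kb on each side. In each library the number of peaks touching the window, the bp of the window under peaks (covered bp) and the width of the widest peak were taken.

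H2Aub was profiled by ChIPmentation, a chromatin immunoprecipitation in which the transposase Tn5 adds the sequencing adapters to chromatin held on beads. Control mice, labelled Maged1 WT by title and Maged1 Loxp by genotype, carried a floxed Maged1 gene, and Maged1-cKO mice (cKO) had lost Maged1 in cells where the vGluT2 promoter drove the recombinase Cre. The methods of the study describe hemizygous cKO males and floxed littermates. All mice were 2 to 4 months old and had 3 days of saline before 5 days of either cocaine (20 mg/kg, intraperitoneal) or saline. There were 3 libraries each of WT saline, WT cocaine and cKO saline, and 2 of cKO cocaine. Per the labels each held 3 to 4 pooled thalami, though the methods set the minimum lower, and the study describes its replicates as independent biological ones. Vglut2-Cre acts only in glutamatergic neurons that express it, while the chromatin came from all cells of the dissected tissue. In such bulk tissue, fewer cells carrying the mark and less mark per cell cannot be told apart. Peak lists hold no expression, so neither the loss of Maged1 nor the labelled tissue could be checked by transcript level. The 4 input samples were not analysed here.

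Pax genes encode transcription factors that bind DNA through a paired domain and direct the formation of organs and cell lineages in the embryo. H2Aub is laid down by Polycomb repressive complex 1 (PRC1) and is removed by deubiquitinases, and broad domains of it are typical of developmental regulators that a tissue keeps silent. Maged1 belongs to the MAGE family, whose members work with ubiquitin ligases. The question set by the design was whether the mark changes with cocaine and whether this depends on Maged1.

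The lists differed widely before any gene was considered. They held 7271 to 80713 peaks, over 4.24 to 27.6 Mb, with no read counts, so the depth behind each is unknown. Replicate 1 stood apart in either cKO group, with a highest fold enrichment over input of 31.2 and 52.6 against 5.98 to 12.2 in the other 9 libraries. Each comparison of covered bp at the Pax genes that used them was therefore also made without them. Peaks with a q above 0.05 made up 2.90 to 24.2% of the peaks at the Pax genes, depending on the library.

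Across all libraries, 8 of the 9 Pax genes carried H2Aub peaks in each of the 11 libraries, as did 6.76% of all protein-coding genes. The exception was Pax4, with peaks in 7 libraries. A median of at least 10 kb under peaks was reached by 7 of the 9 Pax genes and by 163 protein-coding genes in all, or 0.745%. By median covered bp the order was Pax2 (27531 bp, rank 6 of 21887), Pax3 (20884 bp), Pax7 (20513 bp), Pax6 (18745 bp), Pax5 (18257 bp), Pax1 (13955 bp), Pax9 (12359 bp), Pax8 (2062 bp, rank 983) and Pax4 (261 bp, rank 3581). The ranges over libraries of neighbouring genes from Pax2 to Pax9 in this order overlapped. The highest values of Pax8 and Pax4 in any library (3976 and 1336 bp) lay below the lowest of the other 7 genes (7263 bp, at Pax1). Thus the family fell into 7 broadly covered genes and 2 with little coverage.

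**Figure D1:**
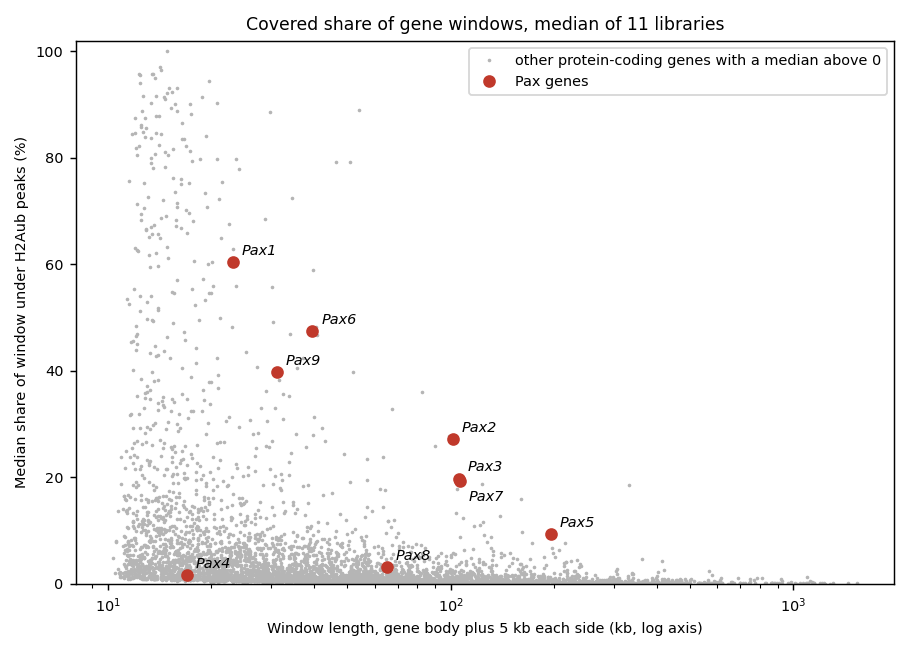
Median share of each gene window under H2Aub peaks over 11 libraries (%, vertical axis) against window length (kb, log axis), with each grey point a protein-coding gene whose median was above 0 and each red point a Pax gene. Pax1 (60.4%), Pax6 (47.4%) and Pax9 (39.7%) had short windows covered to a large share, Pax2, Pax3 and Pax7 lay at 19.3 to 27.1% of windows over 100 kb, and Pax4 and Pax8 lay close to 0.

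Length changed this order. As a share of the window, the medians were 60.4% for Pax1 (window 23.12 kb), 47.4% for Pax6 (39.515 kb), 39.7% for Pax9 (31.132 kb), 27.1% for Pax2 (101.669 kb), 19.7% for Pax3, 19.3% for Pax7, 9.32% for Pax5 (195.947 kb), 3.17% for Pax8 and 1.53% for Pax4. Pax2, the gene with most covered bp, thus came after Pax1, Pax6 and Pax9 by share, and Pax5, the longest gene, came after those and Pax3 and Pax7.

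The members were then taken by subfamily. Pax1 and Pax9 lack a homeodomain and act in the sclerotome, from which vertebrae form, and in the pharyngeal pouches, with Pax9 also needed for teeth. Peaks at Pax1 (chromosome 2, 147361930 to 147375049 in mm10) covered 14936, 10390 and 15036 bp in WT saline, 16748, 13032 and 15242 bp in WT cocaine, 8313, 13955 and 7263 bp in cKO saline, and 9503 and 14852 bp in cKO cocaine. The lowest Pax1 values were in cKO saline replicates 3 and 1, and the 4 groups overlapped. At Pax9 (chromosome 12, 56691693 to 56712824) covered bp were 12019, 10160 and 14904 in WT saline, 16070, 13359 and 12359 in WT cocaine, 8526, 14811 and 9318 in cKO saline, and 10208 and 14474 in cKO cocaine. All 4 groups again shared the range from 12359 to 14474 bp. At Pax9 the mark lay over the lower-coordinate side and the middle of the window, and at Pax1 mainly over the middle. Windows were cut into 4 equal segments, numbered from the lower coordinate up. At Pax9 segments 1 and 2 held 49.2 ± 4.5% and 48.2 ± 5.1% of covered bp (SD, n = 11 libraries), with none in segment 4 in any library. At Pax1 segments 1 to 4 held 22.6 ± 5.9%, 45.1 ± 10.8%, 24.2 ± 6.8% and 8.11 ± 5.51%.

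Pax2, Pax5 and Pax8 share a partial homeodomain. Pax2 acts in the kidney, the optic stalk and the midbrain-hindbrain boundary, Pax5 sets the B-cell lineage, and Pax8 directs the thyroid. At Pax2 (chromosome 19, 44746601 to 44838269) peaks covered 27646, 23799 and 23827 bp in WT saline, 32284, 33192 and 28320 bp in WT cocaine, 28676, 25535 and 21939 bp in cKO saline, and 26027 and 27531 bp in cKO cocaine. The 3 WT cocaine libraries were above every WT saline and every cKO cocaine library. Pax5 (chromosome 4, 44524748 to 44710694) had 17901, 14264 and 18319 bp in WT saline, 23911, 24260 and 18257 bp in WT cocaine, 18902, 16399 and 7365 bp in cKO saline, and 19229 and 18237 bp in cKO cocaine. WT cocaine replicates 1 and 2 were highest at Pax5 and cKO saline replicate 3 lowest, while WT cocaine replicate 3 lay below WT saline replicate 3. Pax8 (chromosome 2, 24420551 to 24475599) had 2345, 1542 and 1928 bp, 3976, 2268 and 2062 bp, 2722, 1661 and 621 bp, and 2148 and 1269 bp in the groups in the same order. Its groups overlapped, and its widest peak was at most 1738 bp in any library.

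Within this subfamily the mark sat at the gene ends. At Pax2, 71.8 ± 5.7% of covered bp were in segment 1, at the lower-coordinate end, and 24.2 ± 2.8% in segment 4, at the other end (SD, n = 11 libraries). Segments 2 and 3 held 2.21 ± 2.28% and 1.76 ± 1.92%, so both ends of Pax2 were marked and its middle was almost bare. Pax5 held 73.7 ± 11.1% and Pax8 92.3 ± 13.95% in segment 4, at the higher-coordinate end. The annotation used gave no strand, so the end with the transcription start is not named. Bases of Pax2 covered in all 11 libraries came to 13458 bp, the most of any member, and the longest such stretch ran over 2844 bp (chromosome 19, 44748321 to 44751164), starting 1.72 kb inside the lower-coordinate end. At Pax5 5694 bp were covered in all 11 libraries, and at Pax8 none.

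Pax3 and Pax7 carry a full homeodomain and act in the dorsal neural tube, with Pax3 also in neural crest and Pax7 in muscle satellite cells. At Pax7 (chromosome 4, 139737059 to 139833530) covered bp were 20513, 15106 and 16775 in WT saline, 26737, 26717 and 20887 in WT cocaine, 23640, 16168 and 17731 in cKO saline, and 24117 and 19615 in cKO cocaine. The lowest WT cocaine library (20887 bp) lay just above the highest WT saline library (20513 bp). Pax3 (chromosome 1, 78101267 to 78197136) had 21242, 14982 and 25654 bp in WT saline, 33767, 24048 and 20884 bp in WT cocaine, 15903, 20706 and 14080 bp in cKO saline, and 16809 and 28687 bp in cKO cocaine. WT cocaine replicate 1 held the highest Pax3 value and the other libraries overlapped between groups. Both genes were marked mainly at the higher-coordinate end, where segment 4 held 86.3 ± 9.2% of covered bp at Pax7 and 72.4 ± 10.2% at Pax3 (SD, n = 11 libraries). A stretch of 3678 bp at Pax7 (chromosome 4, 139830717 to 139834394) and one of 3027 bp at Pax3 (chromosome 1, 78196319 to 78199345) were covered in all 11 libraries, and each crossed the higher-coordinate end of its gene. The widest peak at any member was at Pax3, 26875 bp in WT cocaine replicate 1.

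Pax4 and Pax6 make up the remaining subfamily. Pax4 acts in the beta cells of the pancreas, and Pax6 in the eye, the forebrain and the pancreas. At Pax6 (chromosome 2, 105668896 to 105698410) peaks covered 19810, 14731 and 17843 bp in WT saline, 24169, 23305 and 18745 bp in WT cocaine, 14694, 20739 and 11568 bp in cKO saline, and 15667 and 22566 bp in cKO cocaine. WT cocaine replicate 3 lay below WT saline replicate 1, so the WT groups overlapped. The mark lay in segments 1, 2 and 3 of the Pax6 window (38.2 ± 4.8%, 39.5 ± 6.5% and 22.1 ± 6.0% of covered bp, SD, n = 11 libraries) and left segment 4 nearly bare (0.132%). Pax4 (chromosome 6, 28442334 to 28449340) had 1336, 261 and 0 bp in WT saline, 498, 358 and 464 bp in WT cocaine, 125, 389 and 0 bp in cKO saline, and none in both cKO cocaine libraries. All 8 peaks at Pax4 lay outside the gene body, past its higher-coordinate end. Their q values were 0.00752 to 0.0487 but for the peak of cKO saline replicate 1 (0.000583), and the peaks of cKO saline replicates 1 and 2 overlapped no other.

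**Figure D2:**
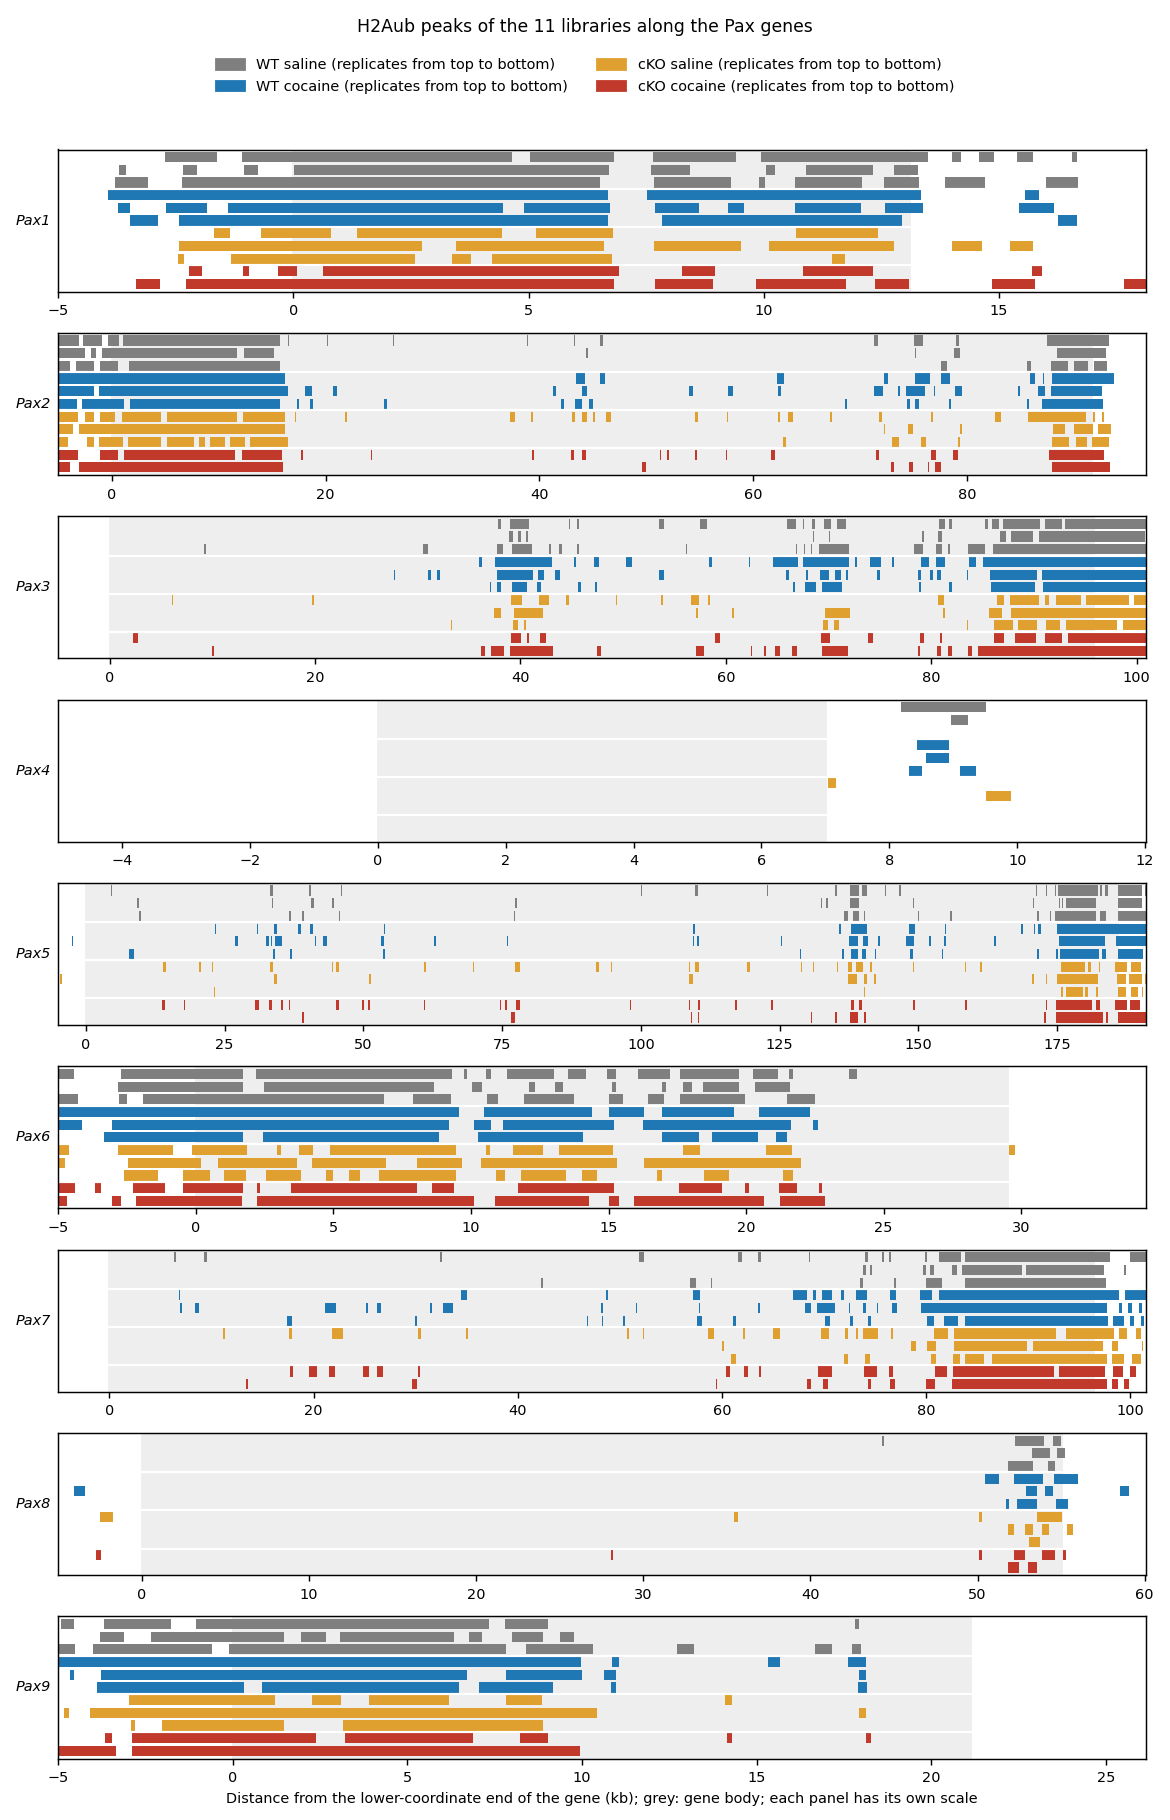
H2Aub peaks along each Pax gene in 11 libraries, 1 row per library in 4 colours by group, over distance from the lower-coordinate end of the gene (kb, each panel with its own scale), with the gene body shaded. Pax2 showed blocks at both ends, and Pax3, Pax5, Pax7 and Pax8 a block at the higher-coordinate end. Pax6 and Pax9 had blocks over the lower-coordinate side and the middle, and Pax1 mainly over the middle.

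Some domains reached beyond the windows. Peaks ran past the lower edge at Pax2 in all 11 libraries (by at most 3269 bp) and at Pax6 in 8 (by at most 5257 bp), and past the higher edge at Pax3 in 10 (by at most 11058 bp), and covered bp counted the part inside only. Of 3 protein-coding neighbours within the windows, Elp4 (a subunit of the Elongator complex) had a peak over its shared stretch with Pax6 in 1 library, and Slc25a21 beside Pax9 and Fscn3 beside Pax4 had none in any. The long noncoding RNA genes in the blocks were covered with the Pax genes. Pax6os1 at Pax6 had a median of 4253 bp of its shared 6435 bp under peaks, Gm15524 at Pax9 6434 of 8075 bp, and both were covered in all 11 libraries. A peak there cannot be assigned to the Pax gene or to its noncoding partner.

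The first comparison set cocaine against saline in WT thalami. Mean covered bp were higher after cocaine at 8 of the 9 Pax genes and at 77.02% of all genes tested, and at 2 of the 9, Pax2 and Pax7, every cocaine library exceeded every saline library. Of the 8200 protein-coding genes tested, 15.5% were higher in this sense and 0.293% were lower, so 2 of 9 higher and 0 of 9 lower lie near that background. At Pax2 peaks covered 25091 ± 2213 bp after saline and 31265 ± 2591 bp after cocaine (SD, n = 3 and 3), a difference of 6175 ± 1967 bp (SE) or 1.25-fold (two-sided exact permutation p = 0.10, adjusted p = 0.633 over 8200 genes, Benjamini-Hochberg). At Pax7 they covered 17465 ± 2769 bp after saline and 24780 ± 3372 bp after cocaine, a difference of 7316 ± 2519 bp or 1.42-fold (exact permutation p = 0.10, adjusted p = 0.633). A p of 0.10 is the smallest that 3 against 3 or 2 against 3 libraries allow, so no such test could pass 0.05. Across the members the median difference was 26.4%, and over the 6457 genes with peaks in WT saline it was 56.4%. Those genes were not matched to the Pax genes for covered bp, so these percentages do not compare like with like. As shares of all peak bp in a library, neither gene kept the separation and both means were lower after cocaine (a change of -0.0932 percentage points at Pax2 and -0.0406 at Pax7). The groups also overlapped at Pax7 with peaks of q at most 0.05 and at Pax2 with 10 kb on each side, where the differences were 6373 and 7249 bp. Single libraries moved the count of 2. It was 4 without WT cocaine replicate 3 (31.7% of all genes then), 5 without WT saline replicate 1 (30.1%), 4 without WT saline replicate 3 (18.8%) and 3 without WT cocaine replicate 2 (20.7%).

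The arrangement of the mark at Pax6 also differed between the WT groups. Peaks touching the window numbered 5, 6 and 6 after cocaine and 13, 10 and 10 after saline, without overlap, whereas covered bp overlapped with the higher mean after cocaine. The same window was thus covered by fewer and, in part, longer pieces, with a widest peak of 19808, 12246 and 6408 bp after cocaine and 7143, 6183 and 8762 bp after saline. The widest peaks overlapped between the groups, since WT cocaine replicate 3 lay within the saline range. The mean number fell by 5.33 ± 1.05 peaks (SE, two-sided exact permutation p = 0.10, adjusted p = 1 over 8200 genes). Of all genes tested, 0.780% had fewer peaks in every cocaine library and 4.28% had more. The separation was kept in all 11 alternatives that could show it (change of -6.33 to -3.33 peaks). Pax6 was the only member of 9 whose peak number did not overlap here, and the same measures in the other genotype were 12 and 8 peaks after cocaine and 12, 7 and 13 after saline, with overlap.

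**Figure D3:**
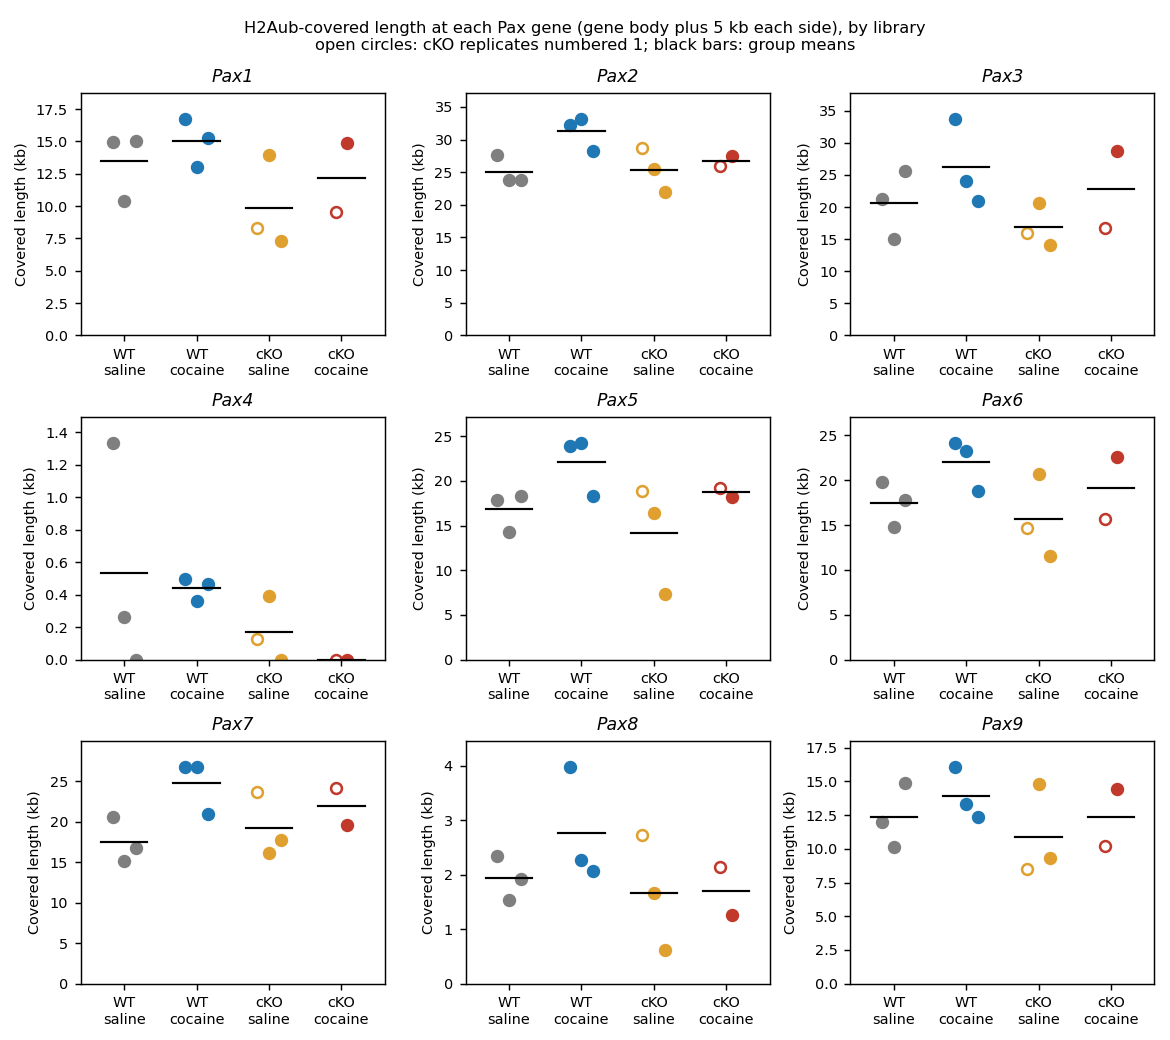
Covered length (kb) at each Pax gene in each of 11 libraries by group, with group means as black bars and the cKO replicates numbered 1 as open circles. WT cocaine lay above WT saline without overlap at Pax2 and Pax7, and both cKO cocaine libraries were at 0 at Pax4.

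In cKO thalami, cocaine and saline overlapped in covered bp at all 9 Pax genes, where 3.90% of 14139 genes were higher and 0.0778% lower. Means were higher after cocaine at 8 of 9 Pax genes and at 56.5% of all genes tested. Pax1 was the only member set apart by other measures. It had 7 and 7 peaks after cocaine against 5, 6 and 5 after saline (1.27% of all genes higher, 0.127% lower), and a widest peak of 6282 and 9099 bp against 3090, 5176 and 3907 bp (5.83% of all genes higher, 0.127% lower). The difference in width was 3633 ± 1534 bp (SE, two-sided exact permutation p = 0.10, adjusted p = 1 over 14139 genes) and that in number 1.67 ± 0.33 (exact permutation p = 0.20, adjusted p = 1). Among equal numbers of peaks per library the difference in peak number changed sign (-1.17), the widths overlapped (a difference of 1522 bp), and the numbers also overlapped with q at most 0.05 (1), over the gene body alone (0) and with 10 kb on each side (1.33). The difference in width was 2224 bp when cKO cocaine replicate 2 was omitted. Without the replicates numbered 1 of both groups, 6 of 9 genes were higher in covered bp in the only remaining cocaine library, and so were 67.2% of all genes tested. The count of higher genes, 0 with all libraries, was 3 without cKO cocaine replicate 1 (8.34% of all genes then), 2 without cKO cocaine replicate 2 (33.1%), 3 without saline replicate 1 (28.5%) and 4 without saline replicate 2 (5.24%), and the count of lower genes was 1 with saline replicate 3 omitted (1.60%).

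The response to cocaine was set directly against genotype by the difference of the differences in covered bp. At Pax2 the mean rise was 6175 bp in WT and 1396 bp in cKO, and at Pax7 7316 and 2686 bp. The difference between genotypes was 4779 bp at Pax2 (exact permutation test within genotype, p = 0.235) and 4629 bp at Pax7 (exact permutation p = 0.38). At the other 7 genes the exact permutation p was 0.46 to 0.985, and after adjustment over 14474 genes p was 1 for all 9. The smallest p this test allows is 0.005. A difference between genotypes in the cocaine response was therefore not detected at any Pax gene with all libraries. Without the cKO replicates numbered 1, a single cKO cocaine library was left, whose spread is unknown, so values are given with no test. The difference was then 2381 bp at Pax2 and 4650 bp at Pax7, and it changed sign at Pax5, Pax6 and Pax9 (-1040, -1801 and -841 bp). It was largest at Pax3 with -5687 bp (-245 bp with all libraries), and -2690 bp at Pax1 (-780.5 bp with all libraries).

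Genotype was also compared under each treatment, with the same libraries as above serving again, so that the 4 comparisons are not independent. After saline, no Pax gene separated cKO from WT in covered bp (0.540% of 13344 genes higher in cKO, 0.607% lower). The mean was lower in cKO at 7 of 9 and at 14.4% of all genes tested. These shares over all genes include cKO saline replicate 1, which held 80713 peaks against 10809 and 7271 in the other cKO saline libraries. With that library left out, again no Pax gene separated, while 1.21% of 6948 genes were higher in cKO and 10.1% lower. Without WT saline replicate 2, Pax1 and Pax3 were lower in every cKO library (2.25% of all genes then), and without cKO saline replicate 2, Pax1, Pax6 and Pax9 were (1.73%). Widest peaks were narrower in all cKO saline libraries at Pax1 (3090, 5176 and 3907 bp against 5737, 6703 and 8899 bp) and at Pax6 (4586, 5711 and 2796 bp against 7143, 6183 and 8762 bp), as at 0.877% of all genes, while 0.809% were wider. The difference was -3055 ± 1115 bp at Pax1 and -2998 ± 1134 bp at Pax6 (SE, p = 0.10 each in a two-sided exact permutation test, adjusted p = 1 over 13344 genes). Both separations were kept in all 12 alternatives that could show them, including the omission of cKO saline replicate 1. Pax1 also had fewer peaks in cKO (5, 6 and 5 against 9, 8 and 8, 0.187% of all genes lower and 0.232% higher, a difference of -3.00 ± 0.47, exact permutation p = 0.10, adjusted p = 1), which was not kept over the gene body alone (-0.667) or with equal numbers of peaks (-3.67).

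After cocaine, means of covered bp were lower in cKO at all 9 Pax genes and at 26.0% of all genes tested. At Pax2 and Pax4 every cKO library lay below every WT library, where 3.25% of 11926 genes did and 6.60% lay above. These shares over all genes include cKO cocaine replicate 1, which held 54653 peaks against 17442 in cKO cocaine replicate 2. At Pax2 the difference was -4486 ± 1674 bp (SE) or 0.857-fold (two-sided exact permutation p = 0.20, adjusted p = 0.681 over 11926 genes). Pax4 was listed without a peak in both cKO cocaine libraries and held 440 ± 73.0 bp in WT (SD, n = 3). It entered this comparison only through its WT peaks, so no p is printed and its call rests on the absence of peaks in cKO. The groups overlapped at both genes when lists were cut to equal numbers of peaks, with a larger difference at Pax2 (-14173 bp) and a smaller one at Pax4 (-67 bp). That cut left cKO cocaine replicate 1 with no peak at Pax2, where its lowest q had been 6.42e-08. At Pax2 they also overlapped as a share of all peak bp (-0.0413 percentage points), and at Pax4 the gene body alone held no peak in either group. Those Pax4 peaks had q values of 0.00752 to 0.0487. Without the replicates numbered 1 of cKO, 5 of 9 genes were lower (Pax2, Pax4, Pax5, Pax7 and Pax8) in the only remaining cKO cocaine library, against 23.3% of all genes. With all other libraries kept, the count was 6 without cKO cocaine replicate 2 (6.07% of all genes), 5 without cKO cocaine replicate 1 (23.3%), 6 with WT cocaine replicate 3 omitted (8.59%) and 3 with WT cocaine replicate 2 omitted (4.46%). Pax6 had more peaks in cKO (12 and 8 against 5, 6 and 6, as at 5.43% of all genes, a difference of 4.33 ± 2.03, exact permutation p = 0.10, adjusted p = 0.713), which changed sign with equal numbers of peaks (-1.83). The groups overlapped over the gene body alone (2.17 peaks) and with 10 kb on each side (3.83 peaks), and the difference was 2.33 peaks when cKO cocaine replicate 1 was omitted. With no peak in cKO cocaine, Pax4 also had fewer peaks (as at 0.746% of all genes) and a lower widest peak (4.53%).

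Summed over the 9 genes, peaks covered 126 ± 17.9 kb in WT saline, 159 ± 20.5 kb in WT cocaine, 114 ± 21.3 kb in cKO saline and 135 ± 16.6 kb in cKO cocaine (SD, n = 3, 3, 3 and 2), out of 685.8 kb of windows. The differences were 32.9 ± 15.7 kb between the WT groups, 21.6 ± 17.0 kb between the cKO groups, -11.8 ± 16.0 kb for cKO against WT saline and -23.2 ± 16.7 kb for cKO against WT cocaine (SE). No test was made on the sum. As a share of all peak bp, the 9 genes held 1.58 ± 0.33% in WT saline and 1.14 ± 0.16% in WT cocaine, and 1.42 ± 0.87% in cKO saline and 0.957 ± 0.530% in cKO cocaine (SD), so the sign of both cocaine differences turned. With equal numbers of peaks the difference between the cKO groups was -7.34 kb. Single libraries weighed on the sums that involve cKO. Between the cKO groups the difference was 9.54 kb without saline replicate 3, 9.79 kb without cocaine replicate 2 and 33.3 kb without cocaine replicate 1. For cKO against WT cocaine it was -11.4 kb without cKO replicate 1, -34.9 kb without cKO replicate 2 and -13.4 kb without WT replicate 1. For cKO against WT saline it was -15.6 kb without cKO replicate 1, -20.1 kb without cKO replicate 2 and 0.176 kb without cKO replicate 3. Without WT replicates 1, 2 and 3 it was -5.84, -22.1 and -7.58 kb. The sum varied 1.98-fold between libraries, while the bp under all peaks of a library varied 6.51-fold. The Pax windows make up 0.0540% of the summed windows of all protein-coding genes and held 1.03 to 2.12% of all peak bp in the 9 other libraries, against 0.583% and 0.441% in the cKO cocaine and cKO saline replicates numbered 1. Among those 9 libraries, longer lists tended to have a larger Pax sum and a smaller Pax share. The part of list length in the differences above was not tested beyond the alternatives named.

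**Figure D4:**
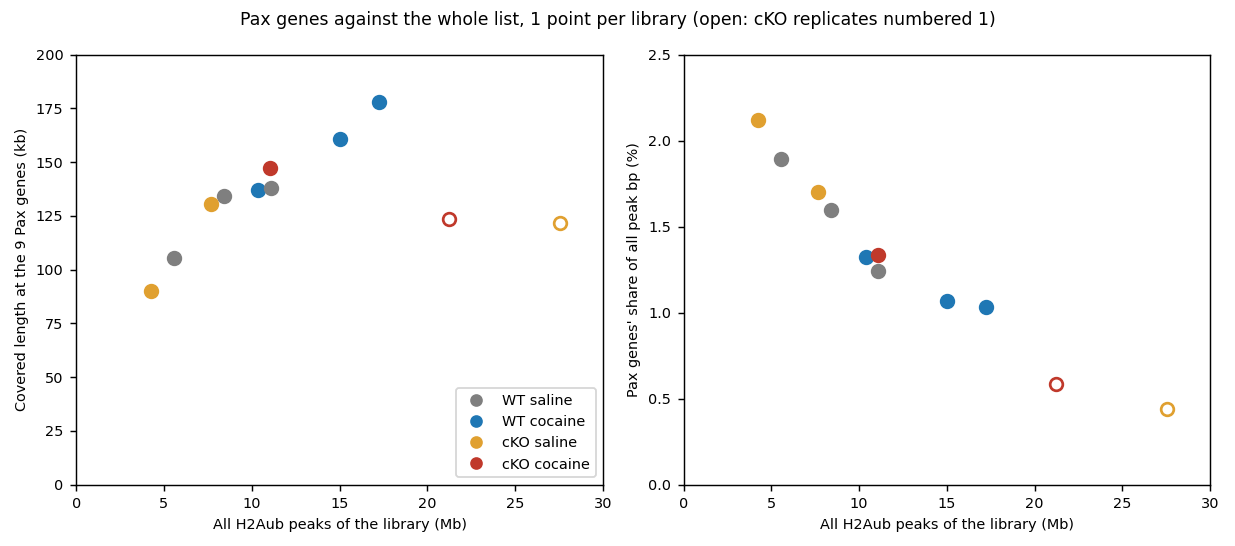
Length under peaks summed over the 9 Pax genes (kb, left) and their share of all peak bp (%, right) against the length of the whole list (Mb), with 1 point per library. The sum ran from 89.9 to 178 kb and the share from 2.12% down to 0.441%, and the open circles (cKO replicates numbered 1) had the longest lists and the lowest shares.

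The replicates numbered 1 of cKO differed from the rest at the Pax genes in the height of peaks. Their highest fold enrichments over input were 13.8 (cocaine) and 16.3 (saline) at Pax8, 8.68 and 14.5 at Pax6, 8.38 and 11.3 at Pax5, and 8.64 and 9.21 at Pax7, where the other 9 libraries reached at most 4.38, 4.80, 5.48 and 5.64. At Pax1, by contrast, they were 5.13 and 4.74 against at most 4.98. The 2 lists shared 76 overlapping pairs of peaks at the Pax genes, of which 10 overlapped a peak in none of the other libraries. These 10 were at Pax5 (3), Pax2 (2), Pax7 (2), Pax8 (2) and Pax9 (1). The highest peaks at Pax8 in both lists were such a pair, 162 and 201 bp wide, at chromosome 2, 24470642 to 24470842. At Pax6 the highest peaks of both lists overlapped peaks of all 9 other libraries.

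Related gene groups were described in the same way. Sine oculis homeobox, Eya and Dach proteins work with Pax factors in a network that specifies eye, ear, kidney and muscle. All 12 of their genes had a peak in at least 1 library and 8 in all 11, with a median covered length of 1915 bp over the 12 genes against 18257 bp over the 9 Pax genes, and Six3 and Six2 led with medians of 15257 and 14372 bp. T-box factors, another family of developmental regulators, had peaks in all libraries at 12 of 17 genes and a median of 9111 bp, led by Tbx5 (27390 bp), Tbx15 (23074 bp) and Tbx3 (18825 bp). Ribosomal protein genes, active in every cell, had no member of 95 with a peak in all libraries, and 43 had one in any. Between WT cocaine and WT saline, 3 of the 10 network genes tested and 3 of 14 T-box genes were higher in every cocaine library, none was lower, and 0 of 16 ribosomal protein genes were either (15.5% of all genes higher, 0.293% lower). After cocaine, cKO lay below WT in every library at 7 of 14 T-box genes and 1 of 12 network genes and above at none (3.25% of all genes lower, 6.60% higher), and the counts lower were 7 of 14 and 3 of 10 without cKO cocaine replicate 1 (23.3%), with 1 network gene higher (15.5%). Between the cKO groups 2 of 15 T-box and 1 of 12 network genes were higher after cocaine and none lower (3.90% and 0.0778% of all genes), but with 1 cocaine library, once the replicates numbered 1 were left out, 9 of 13 and 9 of 10 were higher (67.2%) and 1 T-box gene was lower (2.88%). After saline, 2 of 15 T-box and 1 of 11 network genes were lower in cKO and none higher (0.607% and 0.540% of all genes), and 2 of 14 and 2 of 10 were lower without cKO saline replicate 1 (10.1% of all genes). Ribosomal protein genes gave no such separation in any of the 4 comparisons.

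Markers of the cells that thalamic tissue holds carried peaks as follows. Thalamic excitatory neuron markers had peaks in all libraries at 2 of 6 genes, with a median of 814 bp per gene, GABA neuron markers at 5 of 5 (9669 bp), astrocyte markers at 0 of 4 (375.5 bp), oligodendrocyte markers at 1 of 5 (373 bp), microglia markers at 0 of 4 (0 bp) and blood vessel markers at 0 of 3 (890 bp). The 2 thalamic excitatory markers were Gbx2 (8164 bp) and Slc17a7 (4095 bp), the Vglut1 gene. Slc17a6, the Vglut2 gene, had peaks in 9 libraries (1006 bp). Between WT cocaine and WT saline, 1 of 5 GABA neuron markers, 1 of 4 astrocyte markers and 2 of 3 tested oligodendrocyte markers were higher in every cocaine library (15.5% of all genes), and 1 of 3 tested microglia markers was lower (0.293%). None of 6 thalamic excitatory neuron markers and none of 3 blood vessel markers separated. Between the cKO groups, 1 of 6 thalamic excitatory, 1 of 5 GABA neuron and 1 of 3 tested astrocyte markers were higher after cocaine (3.90% of all genes). After saline, 1 of 6 thalamic excitatory markers was lower in cKO (0.607%), and after cocaine 1 of 6 was higher (6.60%) and 1 of 3 tested oligodendrocyte markers lower (3.25%). No other marker separated in these comparisons. These values are marks on the genes and not transcript levels, and the part of cell composition in the Pax values was not tested.

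The genes whose covered bp over the 11 libraries ran most like those of Pax2, the most covered member, were Lyzl4 (Spearman rho 0.98), M1ap (0.97) and Cidea (0.95) among 3385 genes with peaks in at least 8 libraries. The median rho over these genes was 0.62, and all of them share the libraries and their list lengths.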

How the data were processed

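H2Aub was measured by ChIPmentation in 11 libraries of mouse thalamus. As the study's methods and the labels give it, the authors used Cutadapt for trimming, mapped the reads to mm10 with Bowtie2 (2.3.4.1) and called broad peaks against input with MACS2 (2.1.1.20160309.3), separately for every library. The deposited columns were the position of each peak, a whole-number score, a fold enrichment over input (a linear ratio), and −log10 p and −log10 q. The deposited score was the −log10 q multiplied by 10 and cut to a whole number. Deposited q values reached 0.0997, above the threshold of 0.05 that the study states. The peak lists used here hold no reads. The study states a minimum depth for all samples but no depth per library, so depth was not corrected for.

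Peaks were joined to genes of GRCm38.p6 (the coordinates of mm10) by at least 1 bp over the gene body plus 5 kb on each side. Groups were compared gene by gene with two-sided exact permutation tests of the difference in means, over all protein-coding genes with a peak in at least 1 library compared, with Benjamini-Hochberg adjustment (Python 3.11.15, numpy 2.4.6, pandas 2.3.3, scipy 1.17.1), and the code was tested on simulated data. A gene was called higher or lower where the groups did not overlap. All 9 members are named with their values, with a difference and its p where groups did not overlap (no p at Pax4). Of each other list at most 3 genes are named, those with peaks in the most libraries and the largest medians. Peak number, widest peak and the genotype difference were added to the planned covered bp after the data were seen. The members and lists were chosen with earlier results of these data known. Alternatives were peaks of q at most 0.05, the top 7271 peaks of each list, the gene body alone, at least 50% of a peak in the window, covered bp as a share of all peak bp, 10 kb on each side (chosen after seeing the data), the replicate number as a block, each library left out, and both cKO replicates numbered 1 left out (for the genotype difference and the other lists, chosen after seeing the data). No sequence is printed, as the annotation used holds none.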

Additional observations from a re-analysis of the deposited data

How the results depend on the processing

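Of 352 values computed under the alternatives, 8 changed sign, 33 moved (a count by over 1.5 times, a sum by at least the pooled SD between replicates, or a difference at a single gene to 0), and 14 differences at single genes kept their sign while the groups came to overlap. For WT cocaine against WT saline, the count of higher Pax genes (2) was 1 with 10 kb on each side, 1 with q at most 0.05, 0 as shares of all peak bp and 2 to 5 with single libraries left out. As shares, the summed difference was -0.436 percentage points, and those of Pax2 and Pax7 were -0.0932 and -0.0406. For cKO cocaine against WT cocaine, the count of lower genes (2) was 1 over the gene body alone, 5 without the cKO replicates numbered 1 and 2 to 6 with single libraries left out, and the summed difference was -68.3 kb with equal numbers of peaks. For cKO cocaine against cKO saline, the count of higher genes (0) was 1 with 10 kb on each side, 6 without the replicates numbered 1 and 0 to 4 with single libraries left out, that of lower genes (0) was 0 to 1, and the summed difference was -7.34 kb with equal numbers of peaks and -0.463 percentage points as a share. For cKO saline against WT saline, the count of lower genes (0) was 1 with equal numbers of peaks and 0 to 3 with single libraries left out, and the summed difference was -36.6 kb with equal numbers of peaks. With single libraries left out, the summed differences ran from 22.6 to 43.6 kb, -34.9 to -11.4 kb, 9.54 to 33.3 kb and -22.1 to 0.176 kb in this order of comparisons, the last changing sign without cKO saline replicate 3. With equal numbers of peaks, members with peaks in at least 2 cKO cocaine libraries numbered 4 in place of 8. The cut left cKO cocaine replicate 1 with no peak at Pax1, Pax2, Pax3 or Pax9, whose lowest q there had been 6.42e-08 to 3.74e-05. At least 7542 peaks of that list had a lower q, more than the 7271 kept. The summed differences of cKO cocaine with equal numbers of peaks include this loss. In that setting the differences in peak number were -1.17 at Pax1 between the cKO groups and -1.83 at Pax6 between the cocaine groups. Apart from fewer libraries or peaks by construction, the cause of these changes was not tested.

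The replicate numbers did not pair the WT libraries, whose deviations correlated at 0.037, 0.069 and -0.0063 within numbers, and the cKO cocaine group had 2 numbers only, where pairs with cKO saline correlated at 0.459 and 0.375. Same-numbered libraries of different genotype correlated at -0.143 to 0.115, and not every WT library correlated best with its own number. With the replicate number as a block, the count of genes moving one way in every pair was 5 for WT cocaine above WT saline (26.2% of all genes), 6 for cKO cocaine below WT cocaine (12.1%), 5 above (11.6%) and 2 below (5.36%) for cKO cocaine against cKO saline, and 1 above (2.41%) for cKO saline against WT saline. The block changed the direction of no summed difference.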
